A study of Mus musculus with 4 samples.

Results

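Small nucleolar RNAs (snoRNAs), small Cajal body RNAs (scaRNAs) and 6 further stable noncoding RNAs were examined in poly(A)-selected RNA sequencing of mouse female germline stem cells. Members were taken by gene symbol from the deposited count table. They were all genes named Snord, Snora or Scarna with a number, together with Rn7sk, Rpph1, Rmrp, Terc, Rny1 and Rny3. The rule found 129 genes among the 53291 features of the table, out of 148 such genes in the RefSeq gene table. These were 76 box C/D snoRNA genes (Snord), 38 box H/ACA snoRNA genes (Snora), 9 scaRNA genes (Scarna) and the 6 others. At least 1 count fell on 114 of the 129 members. The cells were female germline stem cells of C57BL/6 mice at passages over 20, which are cultured cells of ovarian origin with germ cell properties. A pair of libraries came from cells with spermidine and a pair from control cells, all profiled at 4 h. Spermidine is a polyamine that the series studied as an inducer of autophagy, and the labels used here state no dose. Nothing in the labels says whether the libraries of a group stem from different cultures. The p-values therefore cover no more than the variation among these samples, and that variation may be technical.

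Box C/D snoRNAs guide the methylation of ribose in ribosomal RNA, and box H/ACA snoRNAs guide the conversion of uridine to pseudouridine. ScaRNAs do the same for spliceosomal RNAs in Cajal bodies. Most snoRNAs of mammals are cut out of introns of host genes, many of which encode ribosomal proteins or are noncoding Snhg genes. 7SK (Rn7sk) holds the elongation factor P-TEFb inactive, Rpph1 is the RNA of RNase P, which trims the 5′ end of transfer RNA precursors, and Rmrp is the RNA of RNase MRP, which cuts ribosomal RNA precursors. RNA polymerase III makes these and the Y RNAs Rny1 and Rny3. Terc is the template RNA of telomerase and is made by RNA polymerase II. Mature forms of these classes carry no long poly(A) tail, so a poly(A) library samples them poorly.

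Sequences are shown for some of the members on which the results turn, in sets that follow length only roughly. The first set holds members under 150 bases with the clearest differences or the highest counts: Snord12 at chr2:167065276-167065365 on the plus strand, Snord52 at chr17:34950952-34951017 on the minus strand, Snord96a at chr11:48802032-48802112 on the plus strand, Scarna9 at chr9:15326264-15326333 on the minus strand, Snora65 at chr2:32963291-32963420 on the plus strand and Snora70 at chrX:74272484-74272620 on the plus strand. Each of these had both spermidine libraries below both controls, as had 31.3% of all genes tested below. All but Snora65 had passed the filter on low counts through the controls only, which partly set that direction. Snord22 (row of 126 bases) and Snord2 (68 bases), both with more counts than Snord52, are not shown. Their spermidine libraries lay above and below the controls. Positions and sequences are from the GENCODE annotation of GRCm38, written 5′ to 3′. Capitals mark box C (TGATGA) and box D (CTGA) in box C/D RNAs, and the ACA box in box H/ACA RNAs.
Snord12: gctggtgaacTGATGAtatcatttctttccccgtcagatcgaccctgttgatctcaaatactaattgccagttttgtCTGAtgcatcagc
Snord52: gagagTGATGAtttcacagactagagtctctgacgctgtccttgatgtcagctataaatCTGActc
Snord96a: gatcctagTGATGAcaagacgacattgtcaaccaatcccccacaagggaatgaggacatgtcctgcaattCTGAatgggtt
Scarna9: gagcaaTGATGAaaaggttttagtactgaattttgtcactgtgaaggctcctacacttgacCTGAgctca
Snora65: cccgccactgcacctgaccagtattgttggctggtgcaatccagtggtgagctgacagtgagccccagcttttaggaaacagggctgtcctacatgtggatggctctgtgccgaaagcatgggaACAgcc
Snora70: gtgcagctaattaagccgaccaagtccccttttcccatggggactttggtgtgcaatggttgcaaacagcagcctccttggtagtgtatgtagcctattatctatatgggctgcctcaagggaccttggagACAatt

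The second set holds members with rows of 145 to 221 bases, most of whose spermidine counts came from spermidine replicate 1. Snora73a at chr4:132352775-132352979 and Snora73b at chr4:132352322-132352526, both on the minus strand, are near copies that share 198 of 205 bases (96.6%), so the split of reads between them is uncertain. Snord17 lies at chr2:144265979-144266216 and Snord15b at chr7:99479563-99479707, both on the minus strand. Capitals mark the same boxes.
Snora73a: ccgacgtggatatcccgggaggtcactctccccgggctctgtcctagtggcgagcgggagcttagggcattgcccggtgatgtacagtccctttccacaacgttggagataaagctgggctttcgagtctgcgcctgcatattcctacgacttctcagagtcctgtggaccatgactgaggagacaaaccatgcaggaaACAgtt
Snora73b: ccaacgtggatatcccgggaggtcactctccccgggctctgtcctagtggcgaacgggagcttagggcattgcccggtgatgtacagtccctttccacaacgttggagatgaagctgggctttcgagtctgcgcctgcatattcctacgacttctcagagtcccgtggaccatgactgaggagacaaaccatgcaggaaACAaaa
Snord17: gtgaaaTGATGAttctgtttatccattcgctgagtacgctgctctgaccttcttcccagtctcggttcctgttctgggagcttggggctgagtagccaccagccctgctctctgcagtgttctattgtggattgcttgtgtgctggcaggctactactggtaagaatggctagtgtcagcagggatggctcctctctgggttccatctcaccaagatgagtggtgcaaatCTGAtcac
Snord15b: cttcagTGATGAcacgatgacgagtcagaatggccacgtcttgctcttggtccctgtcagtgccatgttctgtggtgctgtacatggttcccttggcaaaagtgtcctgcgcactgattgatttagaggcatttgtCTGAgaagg

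The last set gives the first 100 bases of the most abundant members, Rn7sk (chr9:78175303-78175633, minus strand) and Rpph1 (chr14:50807449-50807767, minus strand), neither of which has the boxes of a snoRNA. No letters are in capitals.
Rn7sk: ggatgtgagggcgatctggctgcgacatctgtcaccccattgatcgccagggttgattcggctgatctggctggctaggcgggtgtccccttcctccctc
Rpph1: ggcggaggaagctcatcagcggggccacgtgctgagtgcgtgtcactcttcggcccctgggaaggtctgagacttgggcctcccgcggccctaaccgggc

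Of 74 Snord genes with a GENCODE sequence, 45 (60.8%) held TGATGA within the first 20 bases and CTGA within the last 15, searched on the transcribed strand only. The same pair was in 2.54% of 10520 other GENCODE transcripts of at least 40 and under 300 bases. ACA stood in the last 6 bases of 35 of 38 Snora genes (92.1%), against 12.6% of those other transcripts. The gene names therefore match the class boxes for most members. The deposited rows were often shorter than the GENCODE gene, for 58 Snord, 28 Snora and 8 Scarna genes. Row lengths ran from 28 to 397 bases with a median of 87, and 116 of 129 members were under 150 bases.

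Library totals were 7206176 and 7128901 counts for control and 787600 and 1718944 for spermidine. A row at the ribosomal RNA locus, AY036118, made up 1.68% and 1.64% of the controls' totals and 29.6% and 30.7% of the spermidine totals. Spermidine replicate 1 stood apart by its counts on olfactory, vomeronasal and related receptor genes, which came to 2.33 per kb of 1484 such genes against 0.0464 and 0.112 in the controls and 0.128 in spermidine replicate 2. These are raw counts, not scaled to the library totals. The 8 germline markers gave summed levels of 278 and 267 CPM (counts per 1000000 counts of a library) in controls and 171 and 277 CPM in spermidine, with Ddx4, Prdm1, Pou5f1 and Zbtb16 at 0 in both controls. Members of that sum moved in opposite directions: 3 of 4 tested were called higher and 1 lower, Tex19.1, with 1955 and 1770 control counts beside 36 and 25 with spermidine. Granulosa markers (7 genes) summed to 4.58 and 6.59 CPM in controls and 543 and 5190 in spermidine, oocyte markers (7 genes) to 1.39 and 2.38 against 168 and 1720, and stroma markers (5 genes) to 42.7 and 85.0 against 1560 and 5910. Leukocyte markers (7 genes, 0 called higher and 2 lower) summed to 1400 and 1050 CPM in controls and 254 and 54.7 in spermidine. Plek held most of the control sums, with 7913 and 5844 counts beside 82 and 58 with spermidine. Ptprc was at 0 in both controls. Cd52 had 15 and 224 control counts beside 60 and 6, so that relative to library totals it was highest in spermidine replicate 1. Erythroid markers (5 genes, 2 called higher and 1 lower) summed to 301 and 187 against 213 and 622. Amh, Zp2 and Nobox were at 0 in all 4 libraries, and the leukocyte genes Spi1 and Laptm5 likewise. The part of these differences in the results on small RNAs was not tested. In bulk samples fewer cells of a type and less RNA per cell cannot be told apart.

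The members took a larger share of the counts in both spermidine libraries than in either control, but in spermidine replicate 2 this rested on 7SK RNA alone. All members together made up 0.0938% of control replicate 1 (0.0915 to 0.0960, exact Clopper-Pearson limits at 95%) and 0.0410% of control replicate 2 (0.0395 to 0.0425). They made up 1.32% of spermidine replicate 1 (1.30 to 1.35) and 0.598% of spermidine replicate 2 (0.586 to 0.609). The group means were 0.0674% ± 0.0373 (SD, n = 2) and 0.959% ± 0.512 (SD, n = 2). Intervals and floors here cover counting error only, and 2 libraries against 2 cannot give an exact two-sided permutation p below 0.333. Without Rn7sk the shares were 0.0476% and 0.0333% in control, 0.718% in spermidine replicate 1 and 0.0282% in spermidine replicate 2, so that the spermidine mean of 0.373% joined a library far above both controls and a library below both.

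For snoRNAs and scaRNAs alone the groups overlapped. They made up 0.0395% of control replicate 1 (0.0381 to 0.0410, 2848 counts) and 0.0281% of control replicate 2 (0.0269 to 0.0294, 2007 counts). Spermidine replicate 1 had 0.0763% (0.0703 to 0.0827) from 601 counts, and spermidine replicate 2 had 0.00704% (0.00584 to 0.00841) from 121 counts. The spermidine libraries thus lay on either side of the controls and differed from each other by more than the controls did. The Snord share was 0.0171% and 0.0128% in control and 0.0212% and 0.00367% in spermidine. The Snora share was 0.0214% and 0.0136% against 0.0471% and 0.00273%, and the Scarna share 0.00103% and 0.00168% against 0.00800% and 0.00064%. Each class had its highest share in spermidine replicate 1 and its lowest in spermidine replicate 2.

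Members with a count numbered 108 in control replicate 1, 103 in control replicate 2, 64 in spermidine replicate 1 and 48 in spermidine replicate 2, and 64, 57, 15 and 6 members reached 10 counts in that order. These numbers move with the depth of the libraries. Counts in all 4 libraries were found for 34 members, in controls only for 37 and in spermidine only for 2, Snora35 and Snord118. Snord118, known as U8, had 0 control counts and 2 counts in spermidine replicate 1. The limit that a count of 0 allows, 3 counts, lay at 0.416 and 0.421 CPM for control but at 3.81 and 1.75 CPM for spermidine. A member with a count of 0 may thus have had any level up to those.

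Over all 7836 tested genes, the quasi-likelihood test of edgeR (Benjamini-Hochberg adjustment) called 24.8% higher and 3.99% lower in spermidine at an adjusted p under 0.05. Both spermidine libraries lay above both controls for 35.6% of tested genes and below both for 31.3%, on the scale of normalised CPM. Of the 129 members 37 passed the filter on low counts and were tested, and 92 were not. Rn7sk, Rpph1 and Rmrp rose and Snord12 fell, which makes 3 higher (8.11% of 37) and 1 lower (2.70%), neither above the share over all tested genes. No snoRNA or scaRNA of 33 tested was called higher by this test, with 8 of them at an unadjusted p under 0.05, all lower. Of the 33, 22 passed the filter through the controls only, so the direction of these members was partly set by the filter and their median log2 fold change of -1.54, against 0.23 for all tested genes, supports nothing by itself. Both spermidine libraries lay below both controls for 19 of the 37 tested members (51.4%) and above both for 5 (13.5%). Of the 19, 17 had passed the filter through the controls only. Of the 5, Rny3 and Snora78 had passed it through spermidine only, so the filter partly set their direction too.

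7SK RNA had the highest level per length of all members in every library, at 1390 and 232 CPM per kb in the controls and 18139 and 17148 CPM per kb with spermidine. In control replicate 2 its margin was small, with Snord96a next at 195 CPM per kb, and in both spermidine libraries Rpph1 came next at 15287 and 471 CPM per kb. Rn7sk had 3326 and 549 control counts beside 4743 and 9786 with spermidine, which is 462 and 77.0 CPM against 6022 and 5693 CPM. The spermidine libraries were close to each other and both lay above both controls, while the controls differed from each other by more than the spermidine libraries did. The log2 fold change of Rn7sk was 4.46 ± 0.96 (SE, n = 2 against 2, adjusted p = 0.0088, edgeR with Benjamini-Hochberg adjustment). Without control replicate 1 it was 6.35 (adjusted p = 0.075, edgeR with Benjamini-Hochberg adjustment), without control replicate 2 3.68 (0.214) and without spermidine replicate 1 4.63 (0.117). The direction was the same in each of these fits, and the call was lost.

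RNase P RNA was high in 1 spermidine library. Rpph1 had 349 and 290 control counts beside 3913 and 263 with spermidine. In CPM this is 48.4 and 40.7 against 4968 and 153, so the groups did not overlap and spermidine replicate 1 lay far above the other 3 libraries. The log2 fold change was 5.65 ± 1.31 (SE, n = 2 against 2, adjusted p = 0.0119, edgeR with Benjamini-Hochberg adjustment). Without spermidine replicate 1 it was 2.02 ± 0.29 (adjusted p = 0.0691, edgeR with Benjamini-Hochberg adjustment), and without control replicate 1 it was 5.91 (0.0775).

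RNase MRP RNA had the same order of libraries. Rmrp had 196 and 50 control counts beside 1114 and 92 with spermidine, or 27.2 and 7.01 CPM against 1414 and 53.5 CPM. Both spermidine libraries lay above both controls, spermidine replicate 2 by less. The log2 fold change was 5.22 ± 1.31 (SE, n = 2 against 2, adjusted p = 0.0164, edgeR with Benjamini-Hochberg adjustment). Without spermidine replicate 1 it was 1.88 ± 1.02 (adjusted p = 0.263, edgeR with Benjamini-Hochberg adjustment), and without control replicate 1 it was 6.64 (0.075). For Rpph1 and Rmrp the size of the rise therefore rests on spermidine replicate 1, whereas Rn7sk was nearly as high in spermidine replicate 2. With no low-count filter none of the 3 was called, and limma-voom called Rn7sk alone.

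**Figure D1:**
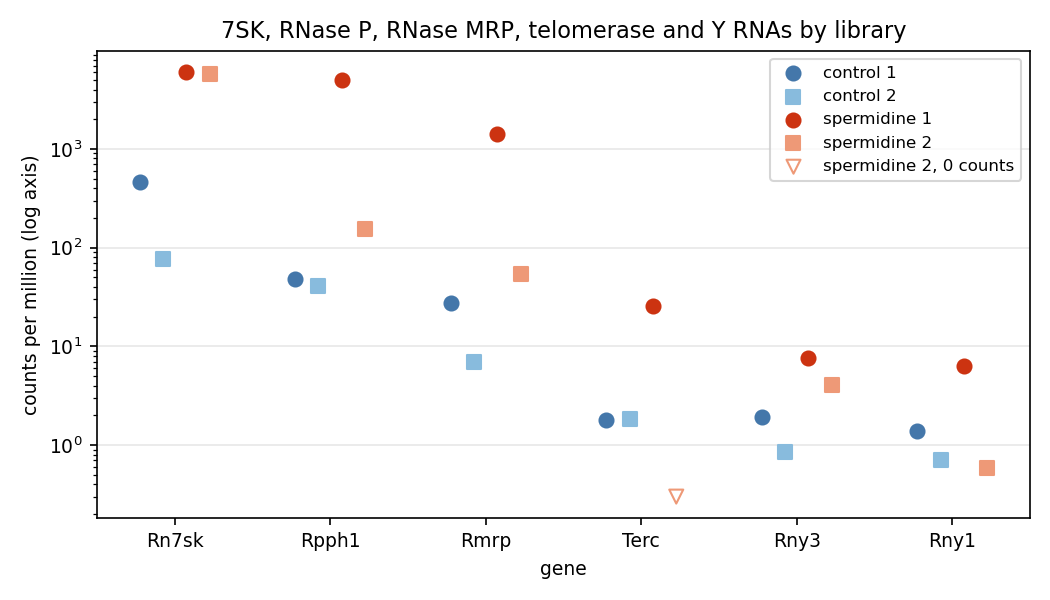
Levels in CPM of the 6 members that are not snoRNAs or scaRNAs, on a log axis, with 1 point per library (blue: controls, red: spermidine, open triangle: 0 counts). Rn7sk was near 6022 and 5693 CPM in both spermidine libraries, while Rpph1 and Rmrp were highest in spermidine replicate 1.

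Telomerase RNA was sparse. Terc had 13 and 13 control counts beside 20 and 0 with spermidine, or 1.80 and 1.82 CPM against 25.4 and 0. It did not pass the filter and was not tested, and its 0 in spermidine replicate 2 stood at a floor of 1.75 CPM, close to the control level. Rny3 had 14 and 6 counts in controls and 6 and 7 in spermidine, or 1.94 and 0.842 CPM against 7.62 and 4.07 CPM. The groups of this Y RNA, a partner of the Ro60 protein, did not overlap, and its log2 fold change of 1.97 ± 0.88 missed the threshold (adjusted p = 0.131, edgeR with Benjamini-Hochberg adjustment). Rny3 had passed the filter through spermidine only, which partly set that direction. Rny1 had 10 and 5 counts against 5 and 1 and was not tested.

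The box C/D snoRNAs included the sole member called lower. Snord12, whose sequence with both boxes is given above, had 79 and 58 counts in the controls and 0 in both spermidine libraries. Over the groups this is at least 7.99-fold lower in spermidine, from a floor of 3 counts, with an adjusted p of 0.0451 by edgeR with Benjamini-Hochberg adjustment. The call lay just inside the threshold. It was lost without control replicate 1 (adjusted p = 0.0785, edgeR with Benjamini-Hochberg adjustment) and without spermidine replicate 1 (0.0849), and also with upper-quartile factors, library totals, totals without AY036118, no low-count filter, thinned controls or a replicate block.

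Other box C/D snoRNAs with few or no spermidine counts missed the threshold. Snord52 had 63 and 48 control counts beside 1 and 1 with spermidine, a pooled level 9.70-fold lower (95% counting interval 2.62 to 81.1, adjusted p = 0.0708, edgeR with Benjamini-Hochberg adjustment). Snord16a had 38 and 28 counts against 0 and 0, at least 3.85-fold lower (adjusted p = 0.0740, edgeR with Benjamini-Hochberg adjustment). Snord69 had 41 and 23 counts against 0 and 0, at least 3.73-fold lower (adjusted p = 0.0748, edgeR with Benjamini-Hochberg adjustment). Snord55 had 59 and 53 counts against 2 and 1, 6.53-fold lower (2.18 to 32.1, adjusted p = 0.107, edgeR with Benjamini-Hochberg adjustment). In these 4 genes and in Snord12 every spermidine library lay below every control. All 5 had passed the filter through the controls only, which partly set that direction. Their rows are under 100 bases, as are 71 of the 76 Snord rows.

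The most counted box C/D genes did not move together. Snord96a had 98 and 107 control counts beside 0 and 13 with spermidine, or 13.6 and 15.01 CPM against 0 and 7.56 CPM. Its log2 fold change was -1.44 ± 1.04 (adjusted p = 0.334, edgeR with Benjamini-Hochberg adjustment), and without spermidine replicate 2 it passed the threshold as lower (adjusted p = 0.0164). Snord22, made from Snhg1, had 106 and 69 counts against 27 and 2, or 14.7 and 9.68 CPM against 34.3 and 1.16 CPM. The spermidine libraries of Snord22 thus lay above and below the controls, with a log2 fold change of 0.17 ± 1.05 that turned negative without spermidine replicate 1 (-3.13). Snord2 had 66 and 46 counts against 11 and 1, or 9.16 and 6.45 CPM against 14.0 and 0.582, in the same order of libraries.

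Snord17, the longest box C/D member at 221 bases, had 17 and 19 control counts beside 34 and 0 with spermidine. That is 2.36 and 2.67 CPM in the controls, 43.2 CPM in spermidine replicate 1 and 0 in spermidine replicate 2. Snord15a at 148 bases and Snord15b at 145 bases came next in length, and neither was tested. Snord15a had 5 and 8 counts against 6 and 0. Snord15b had 12 and 8 counts against 25 and 3. Pooled, its level with spermidine was 8.01 times that of the controls (counting interval at 95%: 4.35 to 14.99), with 25 of its 28 spermidine counts from spermidine replicate 1. These 3 genes were chosen for their length after their values were seen.

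The box H/ACA snoRNAs were led by the Snora73 pair, also known as U17, which takes part in ribosomal RNA processing. Snora73b had 366 and 203 control counts beside 131 and 7 with spermidine, or 50.8 and 28.5 CPM against 166 and 4.07 CPM. Snora73a had 167 and 94 counts against 125 and 6, or 23.2 and 13.2 CPM against 159 and 3.49 CPM. Both were above the controls in spermidine replicate 1 and below them in spermidine replicate 2. The log2 fold changes were 1.89 ± 1.10 for Snora73a (adjusted p = 0.235, edgeR with Benjamini-Hochberg adjustment) and 0.84 ± 1.05 for Snora73b (0.588). Without spermidine replicate 1 they were -2.14 and -3.04, and without spermidine replicate 2 they were 2.96 (adjusted p = 0.000394, edgeR with Benjamini-Hochberg adjustment) and 1.90 (0.00728). Of all snoRNA and scaRNA counts, the pair held 18.7% and 14.8% in control and 42.6% and 10.7% in spermidine.

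Of the other tested box H/ACA snoRNAs, most were lower in both spermidine libraries, and none was called. A further 25 Snora genes were not tested. Snora70, made from an intron of Rpl10, had 136 and 88 control counts beside 4 and 2 with spermidine, or 18.9 and 12.3 CPM against 5.08 and 1.16 CPM. The groups did not overlap, and its log2 fold change was -2.58 ± 1.04 (adjusted p = 0.0911, edgeR with Benjamini-Hochberg adjustment). Snora65, from Rpl12, had 148 and 110 counts against 10 and 4, or 20.5 and 15.4 CPM against 12.7 and 2.33 CPM, and a log2 fold change of -1.54 ± 0.93 (adjusted p = 0.248, edgeR with Benjamini-Hochberg adjustment). Snora81 had 106 and 67 counts against 6 and 1, Snora7a 74 and 67 against 6 and 0, Snora68 74 and 54 against 4 and 1, and Snora28 28 and 22 against 1 and 0. Every one of these 6 had both spermidine libraries below both controls, as had 8 of 13 tested Snora genes, beside 31.3% of all tested genes. Of the 8, 7 had passed the filter through the controls only, so their direction was partly set by it.

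Snora78 was the exception among tested Snora genes in having both spermidine libraries above both controls. It had passed the filter through spermidine only, so that direction was partly set by the filter. It had 11 and 9 control counts beside 8 and 4 with spermidine, or 1.53 and 1.26 CPM against 10.2 and 2.33 CPM, and a log2 fold change of 1.89 ± 0.92 (adjusted p = 0.162, edgeR with Benjamini-Hochberg adjustment).

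The scaRNAs had no common pattern. Scarna9, with a row of 42 bases, had 53 and 30 counts in the controls and 0 in both spermidine libraries, at least 4.84-fold lower (adjusted p = 0.0657, edgeR with Benjamini-Hochberg adjustment). Scarna17 had 4 and 60 control counts beside 1 and 5 with spermidine, so its controls differed from each other more than the groups did. Scarna2 had 3 and 16 counts against 31 and 3, which pooled to a level 10.2 times that of the controls (counting interval at 95%: 5.67 to 19.0). Scarna6 had 5 and 3 counts against 14 and 1, Scarna13 1 and 7 against 12 and 2, and Scarna10 7 and 0 against 5 and 0. Scarna2, Scarna6, Scarna13 and Scarna10 were not tested, and each had most of its spermidine counts in spermidine replicate 1.

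**Figure D2:**
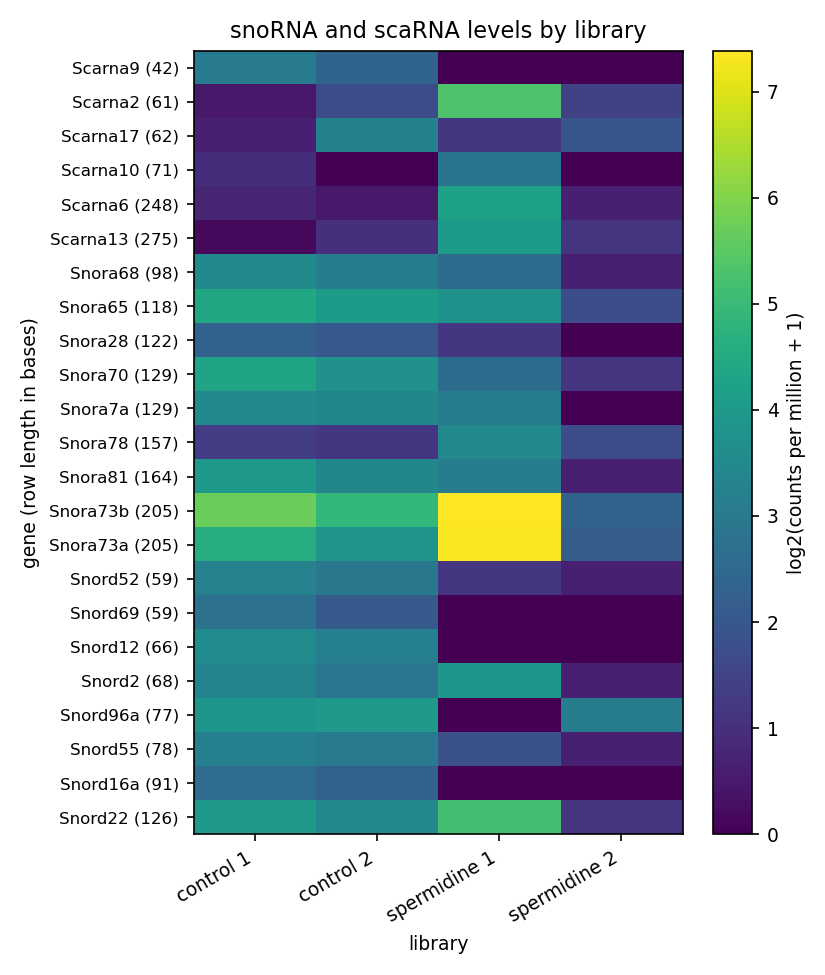
Levels of 23 named snoRNA and scaRNA genes as log2(CPM + 1), with 1 column per library and the row length in bases beside each gene, sorted by class and length. Snora73a and Snora73b were brightest in spermidine replicate 1, at 159 and 166 CPM, and Snord12, Scarna9, Snord16a and Snord69 were at 0 in both spermidine libraries.

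The longer members held a larger part of the snoRNA and scaRNA counts in 1 spermidine library. Only 9 snoRNA or scaRNA genes had rows of 150 bases or longer: Snora73a and Snora73b at 205 bases, Snora74a at 198, Snora23 at 184, Snora81 at 164, Snora78 at 157, Snord17 at 221, Scarna6 at 248 and Scarna13 at 275. They held 24.3% (22.7 to 25.9, exact Clopper-Pearson limits at 95%) of snoRNA and scaRNA counts in control replicate 1 and 20.6% (18.9 to 22.5) in control replicate 2. They held 62.9% (58.9 to 66.8) in spermidine replicate 1 and 20.7% (13.8 to 29.0) in spermidine replicate 2. Spermidine replicate 1 thus differed from the other 3 libraries by more than counting error, and spermidine replicate 2 did not differ from the controls beyond it. Without the Snora73 pair the shares were 6.83%, 6.84%, 35.4% and 11.1% in the same order of libraries.

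In summed level, the longer genes were above both controls in spermidine replicate 1 and the shorter ones between them, and both sums were below the controls in spermidine replicate 2. The 9 longer genes summed to 95.9 and 58.1 CPM in the controls, 480 CPM in spermidine replicate 1 and 14.5 CPM in spermidine replicate 2. The 114 shorter genes summed to 299 and 224 CPM in the controls, 283 CPM in spermidine replicate 1 and 55.9 CPM in spermidine replicate 2. These sums rest on a few genes. In spermidine replicate 1 Scarna2, Snord22 and Snord15b had 31, 27 and 25 of the 223 counts on shorter genes, and Snora73b and Snora73a 131 and 125 of the 378 on longer ones. Shorter and longer refer to the deposited rows. In GENCODE Scarna2 is 414 bases long against a row of 61, and Scarna10 325 bases against a row of 71. Snora78, counted as longer by its row of 157, is 128 bases there. With AY036118 left out of the totals the shorter genes came to 304, 227, 402 and 80.6 CPM and the longer ones to 97.5, 59.0, 682 and 20.99 CPM, so that on this scale the shorter genes of spermidine replicate 1 lay above both controls.

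**Figure D3:**
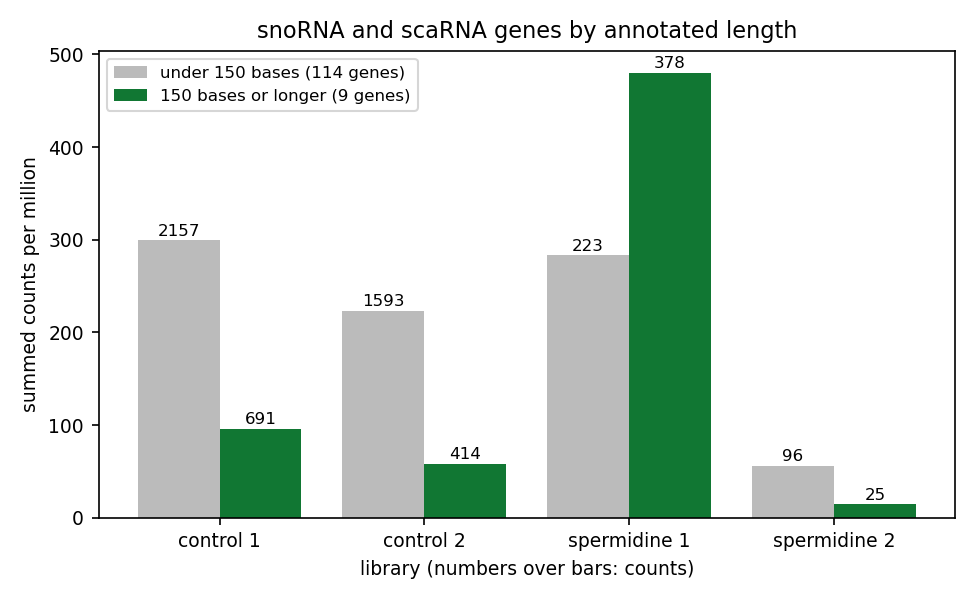
Summed CPM of 114 snoRNA and scaRNA genes with rows under 150 bases (grey) and 9 of 150 bases or longer (green) in each library, with the counts printed over the bars. The longer genes reached 480 CPM in spermidine replicate 1, the only library in which they exceeded the shorter genes.

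For genes with at least 20 counts over the 4 libraries, each spermidine library was set against the mean of the controls, with 0.5 counts added. Over 60 snoRNA and scaRNA genes the log2 ratio correlated with row length at Pearson r = 0.637 and Spearman rho = 0.448 in spermidine replicate 1, and at 0.308 and 0.183 in spermidine replicate 2. Between the controls the values were -0.0399 and 0.0279. These are descriptions across genes that share libraries and controls, and genes are not independent replicates. The 51 genes under 150 bases had a median log2 ratio of -0.89 in spermidine replicate 1 and -2.74 in spermidine replicate 2. The 9 longer genes had medians of 3.37 and 0.39, and 8 of the 9 lay above 0 in spermidine replicate 1. Snora81, at -0.52, was the exception. Of the 51 shorter genes 14 also lay above 0 in spermidine replicate 1, where their ratios ran from -4.50 to 5.24, so the length groups overlapped. The 0.5 counts raise ratios at low counts, because the spermidine libraries are smaller. A gene with 0 counts in every library, such as Snord61, gets 3.19 and 2.06. The median of 0.39 was the value of Snora74a, with 2 counts in spermidine replicate 2. In summed CPM the longer genes lay below both controls in that library.

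**Figure D4:**
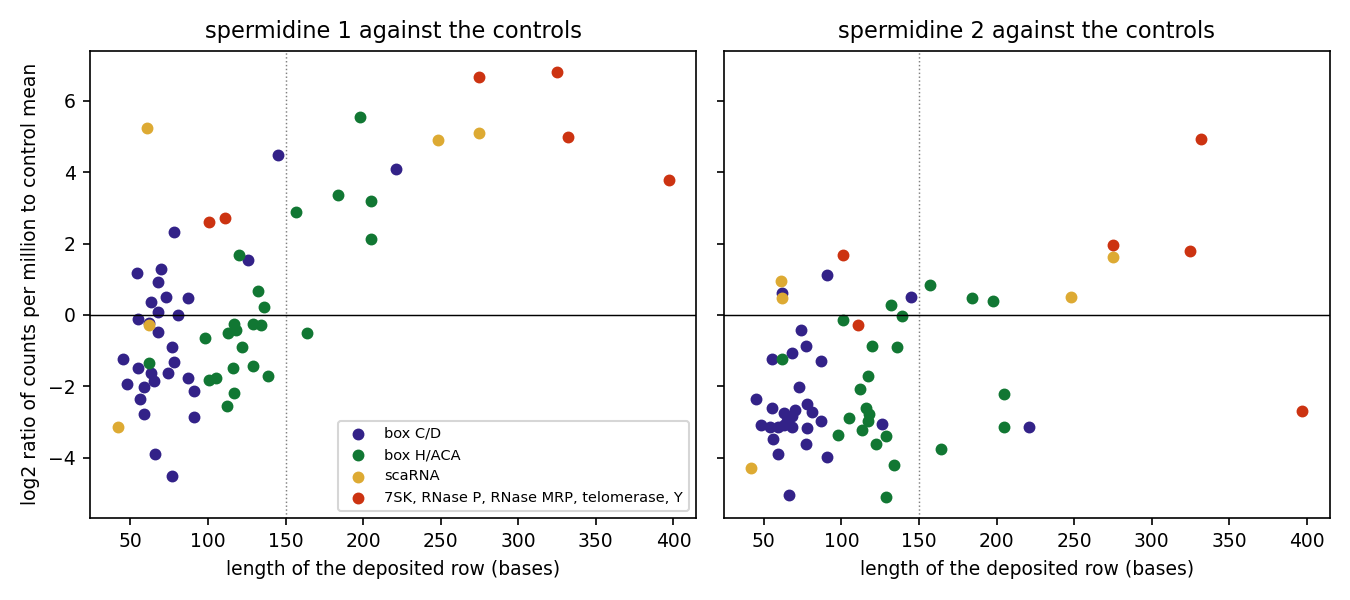
Log2 ratio of each spermidine library to the control mean against row length in bases for 66 members with at least 20 counts, coloured by class, with a dotted line at 150 bases. In spermidine replicate 1 all but 1 of the longer members and some of the shorter ones lay above 0. In spermidine replicate 2 the points were lower, with Rn7sk the highest.

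Background over the genome could be set beside these values. In spermidine replicate 1 the receptor genes had 2.33 raw counts per kb and the snoRNA and scaRNA rows 51.7. Those rows had 245 and 172 raw counts per kb in the controls and 10.4 in spermidine replicate 2. Raw densities are not scaled to the library totals, so they compare rows within a library and not libraries. As a share of the totals these rows were highest in spermidine replicate 1, at 0.0763% against 0.0395% and 0.0281% in the controls. With the receptor background subtracted, the snoRNA and scaRNA share in spermidine replicate 1 was 0.0744% in place of 0.0763%. Hairpins of microRNAs, another class of short row, had a count in 163 and 115 of 1185 genes for control and in 193 and 39 for spermidine. Among snoRNA and scaRNA genes 82.9% and 78.9% had a count for control and 47.1% and 35.0% for spermidine. The microRNA rows thus had most genes with a count in spermidine replicate 1, and the snoRNA rows did not. Of 253 other genes with rows from 150 up to 250 bases, 26 and 30 had a count for control and 114 and 24 for spermidine.

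Most snoRNAs could be set beside the gene they lie in. A gene on the same strand enclosed 113 members, 87 of them protein-coding hosts and 26 long noncoding hosts, with 82 host genes in all. Of 53 hosts tested, 1 was called higher and 4 lower, beside 24.8% and 3.99% over all tested genes, with a median log2 fold change of -0.57. Hosted members had 4.59 and 3.48 counts per 1000 host counts in the controls, 24.1 in spermidine replicate 1 and 1.07 in spermidine replicate 2. Without the Snora73 pair these were 3.68, 2.93, 13.1 and 0.951. Summed snoRNA counts per host count were therefore above the controls in spermidine replicate 1 and below them in spermidine replicate 2. Some hosts, such as Eif4a2, Nop56 and Rabggtb, had 0 counts in all 4 libraries. Eif4a2 encloses Snora81 and Snord2, which had 106 and 67, and 66 and 46, control counts. Whether such hosts were silent or their reads went uncounted was not tested, so the ratio need not follow host expression.

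The hosts' own levels had another order of libraries. All hosts together made up 8.11% and 7.59% of the control totals and 2.95% and 6.30% of the spermidine totals, lowest in spermidine replicate 1. The 24 ribosomal protein hosts held 5.24% and 4.50% against 1.77% and 4.40%. The 35 snoRNAs in ribosomal protein genes had 1050 and 783 control counts beside 97 and 37 with spermidine.

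Where both snoRNA and host were tested (23 pairs), every host had a negative log2 fold change, as had 16 of the snoRNAs. Of the 23 snoRNAs 15 had passed the filter through the controls only, which partly set their direction and their place beside the host, so nothing is read from that count. Snhg3, the host of the Snora73 pair, had 477 and 302 control counts beside 7 and 40 with spermidine, or 66.2 and 42.4 CPM against 8.89 and 23.3 CPM. Its log2 fold change was -1.54 ± 0.73 (adjusted p = 0.154, edgeR with Benjamini-Hochberg adjustment). In spermidine replicate 1 the Snora73 pair thus had 131 and 125 counts beside 7 on its host, whereas in each control the host had more counts than Snora73b or Snora73a alone. Snhg1, the host of Snord22, fell, with 3105 and 2102 counts against 45 and 134 and a log2 fold change of -2.34 ± 0.58 (adjusted p = 0.0155, edgeR with Benjamini-Hochberg adjustment). Snx5, the host of Snord17, had 111 and 79 counts against 4 and 9.

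**Figure D5:**
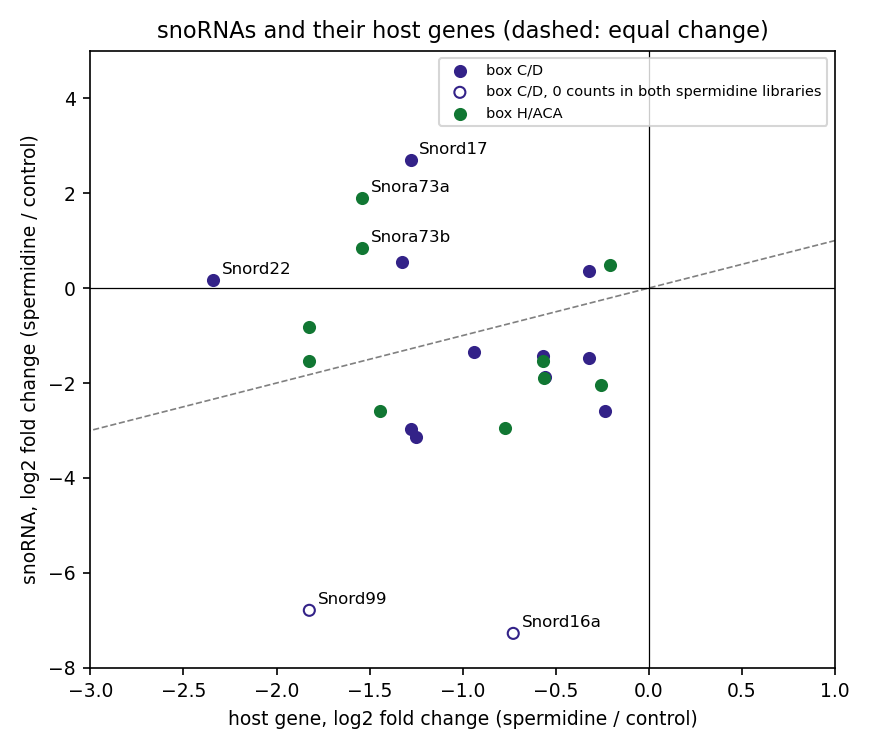
Log2 fold change (spermidine over control) of 23 tested snoRNAs against that of their host genes, with a dashed line where both are equal. All hosts were below 0, Snord17 and the Snora73 pair lay above 0, and open circles are snoRNAs with 0 spermidine counts, for which the fitted value is no bound.

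Host genes from a list of known snoRNA hosts were also counted. Of 53 listed genes 34 were tested, 1 was called higher and 4 lower, beside 24.8% and 3.99% over all tested genes, and their median log2 fold change was -1.02. Rps2, a ribosomal protein gene, fell, with a log2 fold change of -2.96 ± 0.70 (adjusted p = 0.0132, edgeR with Benjamini-Hochberg adjustment). Ncl, which encodes nucleolin, had -2.56 ± 0.61 (0.0137), and Hspa9, a mitochondrial chaperone, -1.95 ± 0.60 (0.0378). Snhg18 was the gene called higher, with 3 and 12 control counts beside 10 and 129 with spermidine (5.60 ± 1.14, adjusted p = 0.00765, edgeR with Benjamini-Hochberg adjustment). At 0.416 and 1.68 CPM in the controls, Snhg18 passed the filter through spermidine only, which partly set its direction. Its snoRNA, Snord123, had 0 counts in all 4 libraries.

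Proteins that bind or make these RNAs were counted from lists. Over all tested genes 24.8% were called higher and 3.99% lower, with a median log2 fold change of 0.23, and the lists below stand beside these values. Of 4 box C/D particle genes 3 were tested and none was called, with 3 at an unadjusted p under 0.05 by edgeR and a median log2 fold change of -1.82. Nop58, a core protein, had 33 and 27 counts against 0 and 0, at least 3.497-fold lower (adjusted p = 0.0767, edgeR with Benjamini-Hochberg adjustment). Nop58 passed the filter through the controls only, which partly set its direction. Nop56 of the same particle and Dkc1 of the box H/ACA particle had 0 counts in all 4 libraries and were not tested. Nothing here shows that they were silent. Snu13, which binds the box C/D fold, had -1.67 ± 0.64 (0.0832). Of 4 box H/ACA particle genes 2 were tested and 1 was lower, Nhp2, with 4269 and 4200 counts against 143 and 276 (-1.77 ± 0.51, adjusted p = 0.0311, edgeR with Benjamini-Hochberg adjustment). Nop10 of the same particle had -1.04 ± 0.63 (0.247).

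Of 13 assembly factor genes 8 were tested and 1 fell, Naf1, which assembles box H/ACA particles, with 893 and 656 counts against 13 and 49 (-2.12 ± 0.64, adjusted p = 0.0363, edgeR with Benjamini-Hochberg adjustment). Ruvbl1, an ATPase of the assembly machinery, had -1.49 ± 0.54 (0.0714). Of 11 protein genes of RNase P and RNase MRP 6 were tested. Rpp25 fell, with 2562 and 3350 counts against 145 and 101 (-1.87 ± 0.59, adjusted p = 0.0442, edgeR with Benjamini-Hochberg adjustment). Pop4 was called higher from few counts, 2 and 0 against 6 and 11, which pooled to 48.6 times the control level (counting interval at 95%: 11.5 to 434, adjusted p = 0.00784, edgeR with Benjamini-Hochberg adjustment). Pop4 passed the filter through spermidine only, which partly set its direction. With 1 gene called higher and 1 lower, the 6 protein genes had a median log2 fold change of -0.91.

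Of 7 genes of the 7SK particle and P-TEFb 4 were tested and none was called, and none had an unadjusted p under 0.05 by edgeR. Hexim1, the inhibitor that 7SK brings to P-TEFb, had -1.17 ± 0.66 (adjusted p = 0.221, edgeR with Benjamini-Hochberg adjustment), and Larp7, which protects the 3′ end of 7SK, had -0.79 ± 0.51 (0.282). Of 17 genes of RNA polymerase III and its promoter factors 8 were tested, none was called and none had an unadjusted p under 0.05 by edgeR, with a median of -0.52. Polr3f had -1.19 ± 0.58 (0.160) and Brf1 had 0.96 ± 0.60 (0.262). Of the telomerase genes Parn alone was tested (-0.58 ± 0.68, adjusted p = 0.563, edgeR with Benjamini-Hochberg adjustment), and of the Y RNA binding genes Ro60 (0.50 ± 0.66, 0.608).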

How the data were processed

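RNA was measured in 2 control and 2 spermidine libraries. The cells' RNA was DNase-treated and enriched for mRNA before paired-end library preparation, per the labels' protocols, which name a pair of library kits. HISAT2, DESeq2 and mm9 are named per the submitters' processing notes, without roles. The sources used here do not give the counting program. In the deposited table are raw whole-number counts for 106519 RefSeq transcript rows, and the spans of all 129 members match GRCm38. Of the rows, 86040 (80.8%) matched a symbol and were summed by gene. The 7 members with no base outside other rows had 0 counts, so their silence is not shown. Rows without a symbol held 1.72%, 1.63%, 4.45% and 1.13% of counts.

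Genes were filtered with filterByExpr (10 counts in a group's libraries on the scale of the median library, total 15), scaled by TMM and tested in edgeR 4.0.16 in R 4.3.3 (glmQLFit and glmQLFTest, group only), with Benjamini-Hochberg adjustment over all 7836 tested genes. SE is the log2 fold change over the root of F. A fold against a group at 0 uses 3 counts over the group, and ratios with few counts have exact 95% counting intervals. On simulated counts for this comparison's 7836 genes the test recovered 5.21% of 96 genes changed 4-fold and 40.4% of 104 changed 16-fold, so most changes of these sizes were missed. Replicates differed beyond sampling noise (chi-square over degrees of freedom 21.2 and 17.1 over all genes). Hosts are the shortest same-strand gene span around a member. Alternatives used DESeq2 1.42.0, limma 3.58.1, other scalings and filters, a replicate block and each library left out.

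Named members are the 6 that are not snoRNAs, of each class the 6 with the most counts and the 4 smallest p, and members called lower. Of protein and host lists, the 2 smallest p and called genes are named. Members and lists were chosen with earlier results of these data known. Gene sequences came from GENCODE M21, which held 127 of 129 members. No sequence is shown for members on chromosome 18.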

Additional observations from a re-analysis of the deposited data

How the results depend on the processing

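Among 23 tested named members under 16 alternatives, 298 values kept their direction and side of the threshold, 21 lost the call, 11 gained it and 12 changed sign. The number of members called higher, 3, was 0 with no low-count filter (11 members at an unadjusted p under 0.05 by edgeR) and 1 by limma-voom (Rn7sk). It was 0 to 7 with a library left out, 0 without control replicate 1 (8 members at an unadjusted p under 0.05 by edgeR) or spermidine replicate 1 (17) and 7 without spermidine replicate 2, which added Snord17, Snora73a, Snora73b and Snora78. The number called lower, 1, was 0 with upper-quartile factors, library totals, no low-count filter, at least 1 CPM in every library, totals without AY036118 and thinned controls (5 to 12 members at an unadjusted p under 0.05 by edgeR, in either direction), 4 by limma-voom, 2 by the legacy edgeR test, an alternative added after seeing the data, and 0 to 5 with a library left out, 0 again without control replicate 1 or spermidine replicate 1 and 5 without control replicate 2 (Snord12, Scarna9, Snord69, Snord16a and Snord99). These fits take the single remaining library to vary as the opposite group does. The numbers of replicates show no pairing by the labels, and same-numbered libraries did not deviate together (r = -0.03 over 7836 genes). With the replicate block 2 members were higher (Rn7sk and Rmrp) and 0 lower (10 at an unadjusted p under 0.05 by edgeR).

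Log2 fold changes that changed sign were those of Snord22 (-0.44 with no filter, -0.84 by limma-voom, -0.21 with the replicate block, -3.13 to 1.33 with a library left out), Snora73b (-0.81 by limma-voom, -0.098 with the replicate block, -3.04 to 1.90 with a library left out), Snora73a (-2.14 to 2.96 with a library left out), Snord2 (-3.47 to 0.68) and Scarna17 (0.0785 by limma-voom, -1.90 to 2.07 with a library left out). Snord22 had -0.051 without control replicate 2. The cause was not tested.

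The spermidine mean share of all members, 0.959%, was 0.373% without Rn7sk, from 0.718% and 0.0282%, the latter below both controls (0.0476% and 0.0333%). It was 0.598% to 1.32% with a library left out. The share of snoRNA and scaRNA counts on longer genes was, in the order of libraries used above, 6.83%, 6.84%, 35.4% and 11.1% without the Snora73 pair and 42.8%, 39.1%, 78.0% and 34.7% with a limit of 120 bases. By GENCODE length it was 68.3% in spermidine replicate 1. These 3 settings were chosen after seeing the data. The depth of the spermidine libraries limits all results on single snoRNAs, since 3 counts there are 3.81 and 1.75 CPM.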

Other observations

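Of the 129 members 15 had no count in any library. For 7 of them (Snora19, Snora24, Snora26, Snord1a, Snord45c, Snord7 and Snord91a) the row shares all its bases with other rows. The other 8 included Scarna3a and also Snord64, Snord116l1 and Snord116l2, which are known from the imprinted Prader-Willi region and made mainly in neurons. Snord116l1 and Snord116l2 have the same sequence (100% identity), and only 52 of the 118 bases of the Scarna3a row lie outside other rows. A 0 on these 3 genes need not mean silence. Snora35, in an intron of the serotonin receptor gene Htr2c and likewise known from brain, had 1 count, in spermidine replicate 1. These genes are named here after their values were seen.

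Several host genes carry more than 1 member. In Snhg12, with 568 and 446 control counts beside 12 and 37 with spermidine, Snora61 had 46 and 25 counts against 1 and 3, Snora16a 32 and 11 against 2 and 2, Snora44 25 and 16 against 0 and 1, and Snord99 30 and 17 against 0 and 0. Snora74a, in Snhg4, had 11 and 5 counts against 40 and 2, or 1.53 and 0.701 CPM against 50.8 and 1.16 CPM. In spermidine replicate 2 it thus lay between the controls. Its pooled level, 15.01 times the control level (counting interval at 95%: 8.27 to 28.6), rests on spermidine replicate 1. Snhg4 itself had 302 and 216 counts against 12 and 31. In Snhg7, Snora43 had 19 and 11 counts against 0 and 3 and Snora17 4 and 16 against 1 and 2.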
